A study of Oryza sativa with 8 samples.

Results

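Many genes are known to set grain size and grain number in rice, and 7 of them are described here in the shoot apical meristem, the growing tip from which all organs of the shoot arise. The members were taken by transcript identifier and are the cell wall invertase GIF1, the cytokinin dehydrogenase Gn1a/OsCKX2, the starch regulator FLO2, and the grain size genes GL7, GS5, BG1 and SRS5. They are 7 of 43481 transcript models in the deposited table, which belong to 36819 loci. Total RNA was sequenced from 3 libraries labelled GW6a-4.6, 3 labelled OsglHAT1-OE and 2 labelled Nipponbare. The first of these is a substitution line that carries a chromosome fragment of the cultivar Kasalath in place of the Nipponbare one. OsglHAT1-OE denotes transgenic plants, and its promoter and number of transformation events are not given in the sources used here. All 3 groups share the Nipponbare background, and Nipponbare itself is the control. Plant age, developmental stage and the number of plants per library are likewise not given, so p-values measure the spread between these libraries, which may be technical.

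As background, a rice grain takes its final size from the number and length of cells in the hull and from the sugar delivered to the filling endosperm. The number of grains is laid down earlier, when cytokinin keeps the inflorescence meristem active and branching. Cell wall invertases split sucrose outside the cell, cytokinin dehydrogenases destroy cytokinin, and microtubules orient the growth of each cell.

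Each value below is the number of read alignments to a transcript model scaled to a library of 1000000 reads. The library totals were 5207710 to 7667853 reads, so that 3 reads were worth 0.391 to 0.576. Of the loci, 31487 were tested with limma on log2 of the value plus 1, having a minimum of 1 in no fewer than 2 libraries. All 7 members passed that filter, and each was the model with the highest mean of its locus. Transcript lengths are not in the files, so levels are compared between groups for 1 gene. Shares of reads between a member and a model of the same or an adjacent locus are given only where reads may be shared, and are not ratios of RNA levels.

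Some libraries stood apart. The GW6a/OsglHAT1 transcript itself (Os06t0650300-00) had values of 2642, 2573 and 2913 in the libraries labelled GW6a-4.6, 13.2, 8.87 and 10.02 in those labelled OsglHAT1-OE and 1.46 and 2.30 in those labelled Nipponbare. The overexpression label thus went with far less of this transcript than the substitution line label, so groups are called by their labels and no change is tied to the dose of that gene. Whether the labels of the lines are exchanged cannot be told from the files. If they were, every difference between the lines below would belong to the opposite genotypes, and each value given for 1 line to the other. Replicate 3 labelled OsglHAT1-OE had 2.41 alignments for each read, where the remaining 7 libraries had 2.66 to 2.69. Its median-ratio scaling factor was 0.865, against 1.01 to 1.07 elsewhere.

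The tissue was checked against marker genes. All lists but that of the meristem were matched by annotation text. The seed list took glutelin, prolamin, seed maturation protein, late embryogenesis abundant protein and dehydrin, and the flower list every MADS-box annotation. Neither list was limited to loci known to be confined to that organ, so the sums do not measure seed or flower tissue. OSH1, a homeobox gene that maintains the meristem, averaged 98.0 ± 10.3 in libraries labelled GW6a-4.6, 106 ± 8.73 in those labelled OsglHAT1-OE (SD, n = 3 each) and 31.7 ± 2.4 in Nipponbare (SD, n = 2), and the 4 meristem markers summed to 338 to 361 in GW6a-4.6, 263 to 337 in OsglHAT1-OE and 168 to 169.8 in Nipponbare. Of these 4, 3 rose and none fell in each line, and Os06t0717200-01 (FON1), a receptor kinase that limits meristem size, was at 78.0 ± 6.38 in GW6a-4.6, 105 ± 18.4 in OsglHAT1-OE and 88.6 ± 3.20 in Nipponbare. Markers of maturing seed or embryo summed to 1670.5 to 1766 in GW6a-4.6, 1366 to 1614 in OsglHAT1-OE and 4587 to 4945 in Nipponbare over 79 loci, of which 10 had no reads in any library. Of the 42 tested, 25 fell and 5 rose in libraries labelled GW6a-4.6, and 25 fell and 3 rose in those labelled OsglHAT1-OE. Leaf markers over 64 loci, of which 2 had no reads, overlapped between groups, with sums of 4518 to 5648 in GW6a-4.6, 5223 to 6349 in OsglHAT1-OE and 5448 to 5957 in Nipponbare. Flower markers summed to 987 to 1042 in GW6a-4.6, 864 to 1025 in OsglHAT1-OE and 1144 to 1174 in Nipponbare over 44 loci, of which 3 had no reads, and root markers to 185 to 189 in GW6a-4.6, 203 to 234 in OsglHAT1-OE and 204 to 206 in Nipponbare over 8. Of the 26 flower markers tested, 9 fell and 5 rose in libraries labelled GW6a-4.6, and 10 fell and 2 rose in those labelled OsglHAT1-OE. Of the 7 root markers tested, 1 fell and 1 rose in GW6a-4.6, and 1 fell and 4 rose in OsglHAT1-OE. Of the 60 leaf markers tested, 12 fell and 11 rose in each line. For scale, 26.7% of all tested loci rose and 19.5% fell in GW6a-4.6, and 22.8% rose and 29.7% fell in OsglHAT1-OE. The summed meristem markers were thus higher, and the summed seed maturation and flower markers lower, in all libraries of both lines than in Nipponbare, and the summed root markers were lower in those labelled GW6a-4.6. The part these differences have in the results below was not tested, and in bulk tissue fewer cells of a type and less RNA per cell cannot be told apart.

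All 7 members differed from Nipponbare in the libraries labelled GW6a-4.6, where the same test called 46.3% of all tested loci, and 5 were higher (26.7% of all loci) and 2 lower (19.5%). All 7 also differed from Nipponbare in the libraries labelled OsglHAT1-OE, where 52.5% of loci were called, with the same 5 higher (22.8%) and the same 2 lower (29.7%). The libraries of the groups did not overlap for any member in either comparison, as was the case for 64.5% of all loci in the first and 66.9% in the second. Both comparisons use the same 2 Nipponbare libraries, so the match of directions between the lines is not independent. It was also common: 10828 of the 31487 tested loci were called in the same direction in both lines. In all, 14566 loci were called in GW6a-4.6 and 16536 in OsglHAT1-OE. By two-sided exact permutation of libraries, p was 0.1 for every member in both comparisons, the smallest that 3 libraries against 2 can give.

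**Figure D1:**
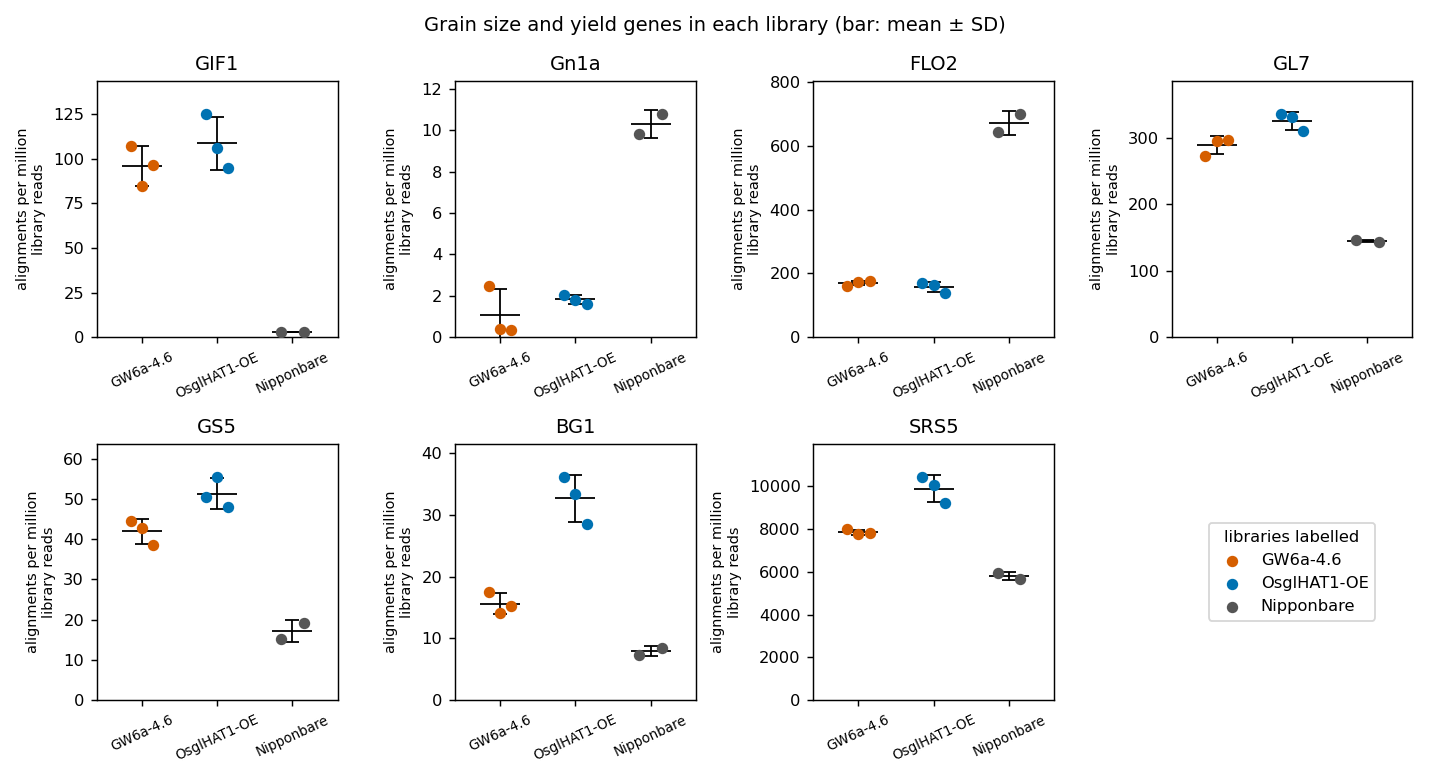
Values of the 7 genes in each library, in alignments scaled to 1000000 library reads (vertical axes start at 0 and differ between panels), with points for libraries and bars for mean ± SD. GIF1, GL7, GS5, BG1 and SRS5 are higher in all 6 libraries of the lines than in both Nipponbare libraries, while Gn1a and FLO2 are lower.

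GIF1 (Os04t0413500-01, chromosome 4 by its identifier) encodes a cell wall invertase that feeds sugar to the young grain. Its value was 107, 84.7 and 96.5 in the libraries labelled GW6a-4.6, 125, 106 and 94.9 in those labelled OsglHAT1-OE and 2.93 and 3.07 in Nipponbare. Every library of both lines lay far above Nipponbare, where 36 reads in all were counted, and the lines overlapped each other. The means were 32.05 times that of Nipponbare in libraries labelled GW6a-4.6 and 36.2 times in those labelled OsglHAT1-OE. The log2 difference of 4.60 (SE 0.14, adjusted p = 1.07e-25) in libraries labelled GW6a-4.6 was larger than that of 99.7% of tested loci and the 66th largest rise. In libraries labelled OsglHAT1-OE the log2 difference was 4.77 (SE 0.14, adjusted p = 4.58e-26), the 25th largest rise. Because 1 was added to low Nipponbare values, these differences understate the ratios of means, and the ranks are on that scale. On whole reads the log2 difference was 4.94 (edgeR) and 4.93 (DESeq2) in GW6a-4.6. In OsglHAT1-OE it was 5.26 and 5.25.

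Other invertases fell more often than they rose. The share called was 33.3% in GW6a-4.6 and 60% in OsglHAT1-OE, against 46.3% and 52.5% of all tested loci. Of all tested loci, 19.5% and 29.7% fell. Of 15 other tested loci annotated as invertases, 1 rose and 4 fell in libraries labelled GW6a-4.6 (median log2 difference -0.11, against 0.067 for all tested loci), and 1 rose and 8 fell in those labelled OsglHAT1-OE (median -0.34, against -0.082). Another cell wall invertase, Os02t0534400-01, was at 62.6 ± 4.56 in libraries labelled GW6a-4.6 and 49.0 ± 3.5 in those labelled OsglHAT1-OE (SD, n = 3 each, as for all values of the lines below), against 218 ± 14.3 in Nipponbare (n = 2), and fell in both (adjusted p = 5.62e-16 and 2.44e-18). The neutral invertases Os03t0314800-01 and Os04t0409900-01, of a family that splits sucrose inside the cell, fell in both lines as well. They averaged 32.5 ± 1.16 and 39.99 ± 2.99 in libraries labelled GW6a-4.6 and 29.0 ± 3.25 and 33.7 ± 1.92 in those labelled OsglHAT1-OE, against 73.1 ± 1.28 and 101 ± 7.3 in Nipponbare. The invertase closest to GIF1 by identifier, Os04t0413200-01, was at 3.002 ± 0.718 in GW6a-4.6, 2.76 ± 0.248 in OsglHAT1-OE and 1.89 ± 0.226 in Nipponbare and passed the test in neither (adjusted p = 0.22 and 0.297). The cell wall invertase Os04t0664800-00 was at 3.63 ± 1.18 in GW6a-4.6, 0.821 ± 0.819 in OsglHAT1-OE and 0.485 ± 0.142 in Nipponbare and rose in libraries labelled GW6a-4.6 (adjusted p = 0.00023), with adjusted p = 0.643 in those labelled OsglHAT1-OE.

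Sugar transporters, which carry the sugars that invertases act on or release, moved both ways. Of 20 tested, 7 rose and 4 fell in libraries labelled GW6a-4.6 (median log2 difference 0.21). In those labelled OsglHAT1-OE, 6 rose and 5 fell (median 0.16). The share called was 55% in each line, against 46.3% (GW6a-4.6) and 52.5% (OsglHAT1-OE) of all tested loci, whose medians were 0.067 and -0.082. The monosaccharide transporter Os04t0453200-01 rose to 28.3 ± 2.8 in GW6a-4.6 and 36.4 ± 3.8 in OsglHAT1-OE, against 8.64 ± 0.00783 in Nipponbare. The bidirectional sugar transporter SWEET3a (Os05t0214300-00) fell to 21.7 ± 1.503 in GW6a-4.6 and 29.7 ± 2.39 in OsglHAT1-OE, against 103 ± 10.3 in Nipponbare.

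Gn1a/OsCKX2 (Os01t0197700-01, chromosome 1) breaks down cytokinin, and weak alleles of it are known to give panicles with more grains. Its value was 2.50, 0.382 and 0.362 in the libraries labelled GW6a-4.6, 2.05, 1.83 and 1.62 in those labelled OsglHAT1-OE and 9.80 and 10.8 in Nipponbare. The reads behind these values were 14, 2 and 2 in GW6a-4.6, 14, 14 and 11 in OsglHAT1-OE and 67 and 56 in Nipponbare, so this is the member with the fewest reads, and 2 of the libraries labelled GW6a-4.6 lie below the worth of 3 reads. Replicate 1 labelled GW6a-4.6 lay above every library labelled OsglHAT1-OE and the other 2 lay below them, while all 6 lay below Nipponbare. The means were 1.08 ± 1.23 in GW6a-4.6, 1.83 ± 0.217 in OsglHAT1-OE (SD, n = 3 each) and 10.3 ± 0.674 in Nipponbare (n = 2). The mean was lower by a factor of 9.50 in libraries labelled GW6a-4.6 and of 5.60 in those labelled OsglHAT1-OE. The factor of 9.50 rests on replicate 1 labelled GW6a-4.6: without it the mean was 0.372 in that group, lower by a factor of 27.6 than in Nipponbare. The log2 differences were -2.59 (SE 0.34, adjusted p = 5.66e-08) in GW6a-4.6 and -1.99 (SE 0.34, adjusted p = 5.61e-06) in OsglHAT1-OE, which understate the ratio because the values are near the pseudocount.

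No other cytokinin dehydrogenase fell among the 5 tested in either line, where 19.5% (GW6a-4.6) and 29.7% (OsglHAT1-OE) of all tested loci fell. Cytokinin dehydrogenase 11 (Os08t0460600-01) rose to 25.2 ± 1.72 in GW6a-4.6 and 23.3 ± 3.51 in OsglHAT1-OE, against 9.49 ± 1.47 in Nipponbare (adjusted p = 1.81e-07 and 7.66e-07). The locus annotated as cytokinin dehydrogenase 5 (Os01t0775400-01) was at 8.88 ± 2.11 in GW6a-4.6 and 6.63 ± 0.655 in OsglHAT1-OE, against 9.76 ± 1.40 in Nipponbare (adjusted p = 0.671 and 0.0916), and cytokinin dehydrogenase 1 (Os01t0187600-01) at 1.78 ± 0.155 in GW6a-4.6 and 4.62 ± 1.58 in OsglHAT1-OE, against 2.95 ± 0.375 in Nipponbare (adjusted p = 0.176 and 0.204). Cytokinin dehydrogenase 10 (Os06t0572300-00) was at 0.693 ± 0.889 in GW6a-4.6 and 0.479 ± 0.479 in OsglHAT1-OE and had no reads in Nipponbare (adjusted p = 0.183 and 0.276). DST (Os03t0786400-01), a zinc finger factor known to activate Gn1a, rose to 72.7 ± 3.04 in GW6a-4.6 and 106 ± 15.5 in OsglHAT1-OE, against 46.4 ± 1.71 in Nipponbare. Whether DST bears on Gn1a in these libraries was not tested.

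FLO2 (Os04t0645100-02, chromosome 4) is a protein with tetratricopeptide repeats whose loss gives a floury endosperm with less starch. Its value was 162, 172 and 176 in the libraries labelled GW6a-4.6, 169, 164 and 140.04 in those labelled OsglHAT1-OE and 644 and 698 in Nipponbare. The lines overlapped, and all 6 of their libraries lay below both of Nipponbare by a wide margin. The log2 differences were -1.97 (SE 0.092, adjusted p = 4.03e-20) in GW6a-4.6 and -2.08 (SE 0.092, adjusted p = 6.00e-21) in OsglHAT1-OE, larger in size than those of 95.9% and 95.3% of tested loci. The second model of the locus, Os04t0645100-01, was at 102 ± 14.9 in GW6a-4.6 and 106 ± 6.54 in OsglHAT1-OE, against 499 ± 22.1 in Nipponbare. It stood at 56.5%, 69.3% and 54.8% of the first model in libraries labelled GW6a-4.6, 66.2%, 64.5% and 70.7% in those labelled OsglHAT1-OE and 75.1% and 73.8% in Nipponbare. Models of a locus may share reads, so this share describes the counts and not separate transcripts.

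Starch synthesis genes, which FLO2 is known to influence in the endosperm, fell more often than they rose. Their log2 differences ranged from -3.13 to 2.02 in libraries labelled GW6a-4.6 and from -3.29 to 2.49 in those labelled OsglHAT1-OE. The loci named below all fell. Of 24 tested, 13 fell and 7 rose in libraries labelled GW6a-4.6 (median log2 difference -0.43), and 14 fell and 4 rose in those labelled OsglHAT1-OE (median -0.38). The share called was 83.3% in GW6a-4.6 and 75% in OsglHAT1-OE, against 46.3% and 52.5% of all tested loci. Of all tested loci, 19.5% and 29.7% fell, and their medians were 0.067 and -0.082. A subunit of ADP-glucose pyrophosphorylase (Os05t0580000-01), the enzyme of the committed step, fell to 338 ± 3.27 in GW6a-4.6 and 304 ± 25.8 in OsglHAT1-OE, against 2974 ± 28.7 in Nipponbare (adjusted p = 1.24e-28 and 2.82e-29). The granule-bound starch synthase Ib transcript (Os07t0412100-01), the form that makes amylose outside the endosperm, fell to 329 ± 8.7 in GW6a-4.6 and 341 ± 18.4 in OsglHAT1-OE, against 1215 ± 37.8 in Nipponbare. Starch synthase I (Os06t0160700-01) fell to 43.4 ± 4.26 in GW6a-4.6 and 55.4 ± 8.01 in OsglHAT1-OE, against 163 ± 2.88 in Nipponbare, and the debranching enzyme ISO2 (Os05t0393700-01) to 35.0 ± 6.56 in GW6a-4.6 and 40.8 ± 0.579 in OsglHAT1-OE, against 146 ± 2.09 in Nipponbare. In the same libraries the summed seed and flower marker lists were lower and the summed meristem markers higher. A link of any of these to FLO2 or the starch genes was not tested.

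**Figure D2:**
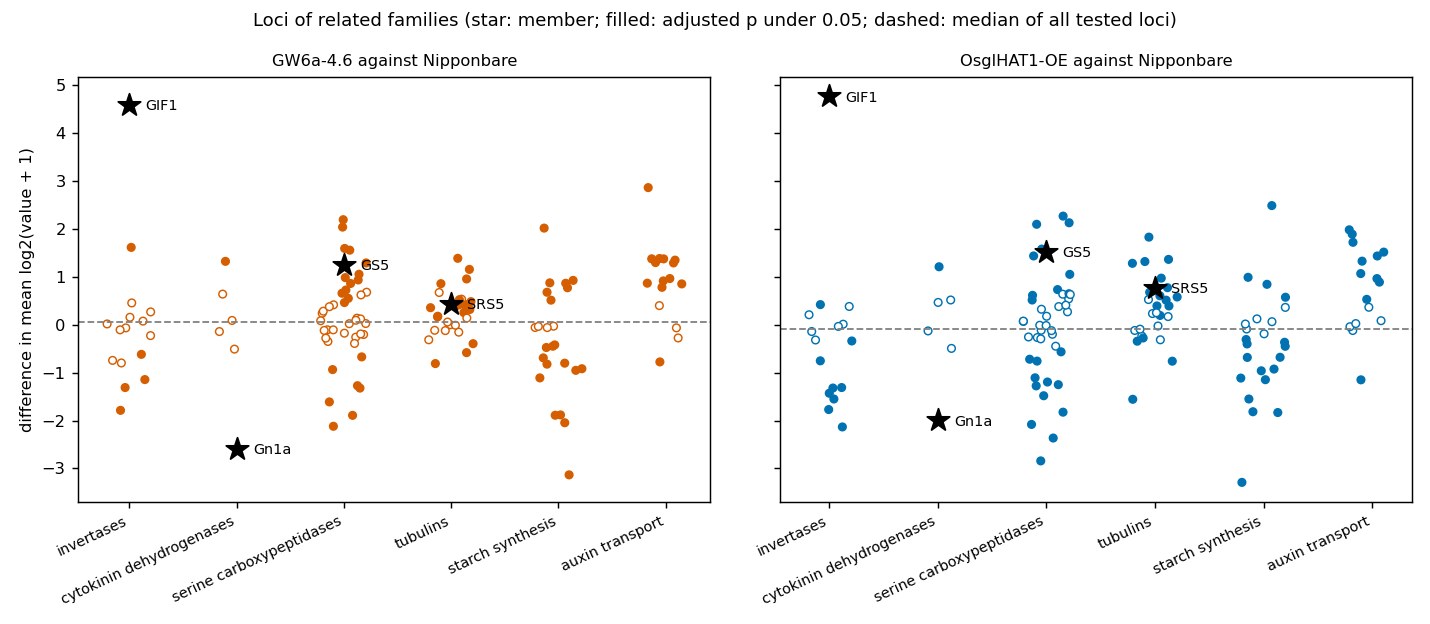
Log2 differences from Nipponbare of loci in families related to the 7 genes, in libraries labelled GW6a-4.6 (left) and OsglHAT1-OE (right), with 1 point per tested locus, filled where the adjusted p passed and a star for the member. GIF1 lies above and Gn1a below all other tested loci of their families, while GS5 and SRS5 lie within theirs.

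GL7 (Os07t0603300-01, chromosome 7) is related to the LONGIFOLIA proteins of Arabidopsis and promotes cell elongation along the grain. Its value was 273, 296 and 297 in the libraries labelled GW6a-4.6, 335, 332 and 310.3 in those labelled OsglHAT1-OE and 146 and 144 in Nipponbare. The 3 groups were separate, and OsglHAT1-OE was the highest. The means were 1.99 (GW6a-4.6) and 2.24 (OsglHAT1-OE) times that of Nipponbare, with log2 differences of 0.99 (SE 0.085, adjusted p = 2.28e-12) in GW6a-4.6 and 1.16 (SE 0.085, adjusted p = 1.98e-14) in OsglHAT1-OE. GW8 (Os08t0531600-01), a factor of the SPL family known to repress GL7, was at 3.21 ± 1.6 in libraries labelled GW6a-4.6 (adjusted p = 0.985), at 6.17 ± 1.05 in those labelled OsglHAT1-OE, where it rose (adjusted p = 0.0226), and at 3.03 ± 0.478 in Nipponbare.

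GS5 (Os05t0158500-01, chromosome 5) encodes a putative serine carboxypeptidase that promotes grain width. Its value was 44.6, 42.8 and 38.6 in the libraries labelled GW6a-4.6, 50.5, 55.4 and 47.9 in those labelled OsglHAT1-OE and 15.2 and 19.2 in Nipponbare. The groups did not overlap, with log2 differences from Nipponbare of 1.25 (SE 0.15, adjusted p = 5.19e-09) in GW6a-4.6 and 1.53 (SE 0.15, adjusted p = 2.97e-11) in OsglHAT1-OE. Other serine carboxypeptidases moved both ways. The share called was near that of all tested loci, at 47.6% against 46.3% in GW6a-4.6 and 52.4% against 52.5% in OsglHAT1-OE. Of all tested loci, 26.7% rose and 19.5% fell in GW6a-4.6, and 22.8% rose and 29.7% fell in OsglHAT1-OE. Of 42 tested, 13 rose and 7 fell in libraries labelled GW6a-4.6, and 10 rose and 12 fell in those labelled OsglHAT1-OE, with medians of 0.11 and -0.013. Os11t0522900-01 rose to 156 ± 11.7 in GW6a-4.6 and 184 ± 19.5 in OsglHAT1-OE, against 37.5 ± 6.91 in Nipponbare, and Os02t0634700-01 fell to 22.9 ± 2.65 in GW6a-4.6 and 23.5 ± 1.77 in OsglHAT1-OE, against 103 ± 20.02 in Nipponbare.

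BG1 (Os03t0175800-01, chromosome 3) is a plasma membrane protein that responds to auxin, influences auxin transport and enlarges the grain. Its value was 17.5, 14.1 and 15.2 in the libraries labelled GW6a-4.6, 36.1, 33.4 and 28.6 in those labelled OsglHAT1-OE and 7.31 and 8.45 in Nipponbare. The 3 groups were separate steps, with means of 15.6 ± 1.71 in GW6a-4.6, 32.7 ± 3.80 in OsglHAT1-OE (n = 3 each) and 7.88 ± 0.803 in Nipponbare (n = 2). The log2 differences from Nipponbare were 0.90 (SE 0.19, adjusted p = 0.000143) in GW6a-4.6 and 1.92 (SE 0.19, adjusted p = 5.25e-11) in OsglHAT1-OE.

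Auxin carriers rose in most cases: 12 of 16 tested loci rose and 1 fell in libraries labelled GW6a-4.6 (median log2 difference 0.94), and 10 rose and 1 fell in those labelled OsglHAT1-OE (median 0.93). The share called was 81.25% in GW6a-4.6 and 68.75% in OsglHAT1-OE, against 46.3% and 52.5% of all tested loci. Of all tested loci, 26.7% and 22.8% rose, and their medians were 0.067 and -0.082. The influx carriers Os05t0447200-01 and Os10t0147400-01 rose to 202 ± 3.41 and 40.6 ± 1.02 in libraries labelled GW6a-4.6 and to 224 ± 24.3 and 62.6 ± 8.05 in those labelled OsglHAT1-OE, against 77.5 ± 9.95 and 15.1 ± 2.05 in Nipponbare. The efflux carrier locus Os09t0554300-01 rose to 54.0 ± 4.32 in libraries labelled GW6a-4.6 (adjusted p = 1.13e-09) and was at 20.4 ± 0.212 in those labelled OsglHAT1-OE (adjusted p = 0.905), against 20.1 ± 0.391 in Nipponbare. It was lower in libraries labelled OsglHAT1-OE than in those labelled GW6a-4.6 (log2 difference -1.36, adjusted p = 2.82e-10).

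SRS5 (Os11t0247300-01, chromosome 11) encodes an alpha-tubulin, and a mutant form of it gives small and round seeds. Its value was 7992, 7776 and 7801 in the libraries labelled GW6a-4.6, 10427, 10042 and 9198 in those labelled OsglHAT1-OE and 5952 and 5660.5 in Nipponbare. The groups formed separate steps with little spread. The means were 1.35 (GW6a-4.6) and 1.70 (OsglHAT1-OE) times that of Nipponbare, with log2 differences of 0.44 (SE 0.062, adjusted p = 2.26e-07) in GW6a-4.6 and 0.77 (SE 0.062, adjusted p = 2.63e-13) in OsglHAT1-OE. Tubulin genes are alike in sequence and may share reads. The second model, Os11t0247300-02, held 15.6% to 18.2% of the first in every library, and the adjacent hypothetical gene Os11t0247350-00 held 24.5% to 26.9%, so reads of the 3 may not be separable.

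Tubulin-annotated loci, folding cofactors included, rose in 13 and fell in 3 of 27 tested in libraries labelled GW6a-4.6 (median 0.25), and rose in 14 and fell in 4 in those labelled OsglHAT1-OE (median 0.39). The share called was 59.3% in GW6a-4.6 and 66.7% in OsglHAT1-OE, against 46.3% and 52.5% of all tested loci. Of all tested loci, 26.7% and 22.8% rose, and their medians were 0.067 and -0.082. Beta-3 tubulin (Os02t0167300-01) rose to 585 ± 16.9 in GW6a-4.6 and 786 ± 13.4 in OsglHAT1-OE, against 322 ± 0.324 in Nipponbare, and the beta-tubulin Os05t0413200-01 to 372 ± 21.6 in GW6a-4.6 and 479 ± 25.02 in OsglHAT1-OE, against 191 ± 16.0 in Nipponbare. Beta-2 tubulin (Os01t0805900-01) rose to 733 ± 21.4 in GW6a-4.6 and 938 ± 35.001 in OsglHAT1-OE, against 548 ± 13.4 in Nipponbare. The 4 other alpha-tubulin loci did not move alike. Os07t0574800-02 rose in both lines, to 1017 ± 17.3 in GW6a-4.6 (adjusted p = 0.0444) and 1192 ± 7.74 in OsglHAT1-OE (adjusted p = 6.21e-06), against 907 ± 13.1 in Nipponbare. Os03t0726100-01 was at 2639.5 ± 5.41 in GW6a-4.6 (adjusted p = 0.489) and rose to 3335 ± 126 in OsglHAT1-OE (adjusted p = 2.01e-06), against 2538 ± 95.8 in Nipponbare. Os03t0219300-01 passed the test in neither line (117 ± 13.7 in GW6a-4.6 and 107 ± 6.33 in OsglHAT1-OE, against 126 ± 8.19 in Nipponbare), and Os11t0549900-01 fell in both (8.2 ± 1.33 in GW6a-4.6 and 4.48 ± 0.704 in OsglHAT1-OE, against 15.5 ± 5.3 in Nipponbare).

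The lines were then compared with each other, under their labels as given, which tests whether their changes from Nipponbare differ. BG1 and SRS5 were higher in libraries labelled OsglHAT1-OE than in those labelled GW6a-4.6, where 32.4% of all loci were called and 7.69% were called as higher. The log2 difference was 1.02 (95% interval 0.68 to 1.36, adjusted p = 8.87e-06) for BG1 and 0.33 (0.22 to 0.44, adjusted p = 9.82e-06) for SRS5. GL7 and GS5 did not pass (adjusted p = 0.0787 and 0.1), although their libraries did not overlap, as was so for 42.7% of all loci. The log2 difference was 0.17 (0.019 to 0.33) for GL7 and 0.28 (0.015 to 0.55) for GS5. For GIF1 it was 0.17 (-0.085 to 0.43), for FLO2 -0.11 (-0.28 to 0.055) and for Gn1a 0.59 (-0.025 to 1.21), and these groups overlapped. The exact permutation p was 0.1 for the 4 members that did not overlap, the smallest that 3 against 3 can give, and 0.3 to 0.5 for the other 3.

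**Figure D3:**
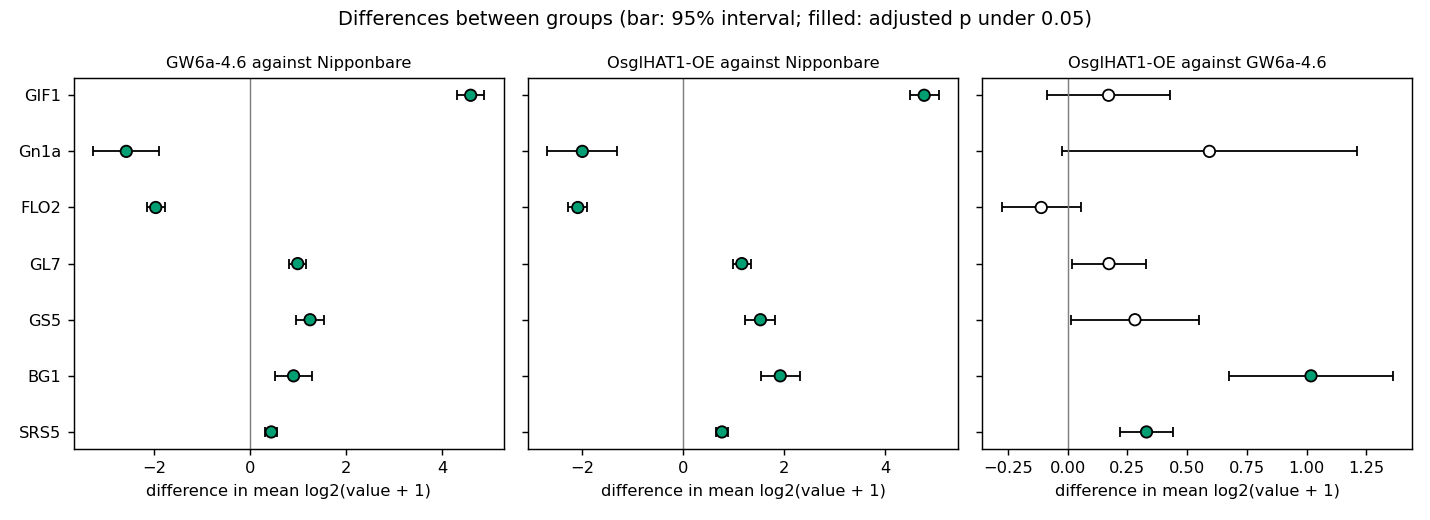
Differences between groups in mean log2(value + 1), with 95% intervals, for the 7 genes in the 3 comparisons (horizontal axes differ). The 7 intervals exclude 0 against Nipponbare in both lines, and BG1 at 1.02 and SRS5 at 0.33 are the filled points between the lines.

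This last comparison depends on scaling more than the others. The median of all tested loci was -0.13 on the log2 scale as deposited and 0.0085 after median-ratio scaling, and the split of called loci was 2422 higher and 7787 lower as deposited, against 5892 higher and 5859 lower after that scaling. After median-ratio scaling, GIF1, GL7 and GS5 were also called higher in libraries labelled OsglHAT1-OE, with log2 differences of 0.32, 0.33 and 0.43 (adjusted p = 0.0156, 0.000118 and 0.003). BG1 was called higher in libraries labelled OsglHAT1-OE under all 22 alternatives. SRS5 turned to -0.071 (adjusted p = 0.0974) under quantile normalization, which gives every library the same set of values. Without OsglHAT1-OE replicate 3, BG1 was at 1.11, SRS5 at 0.38 and GL7 at 0.21 (adjusted p = 0.0176).

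**Figure D4:**
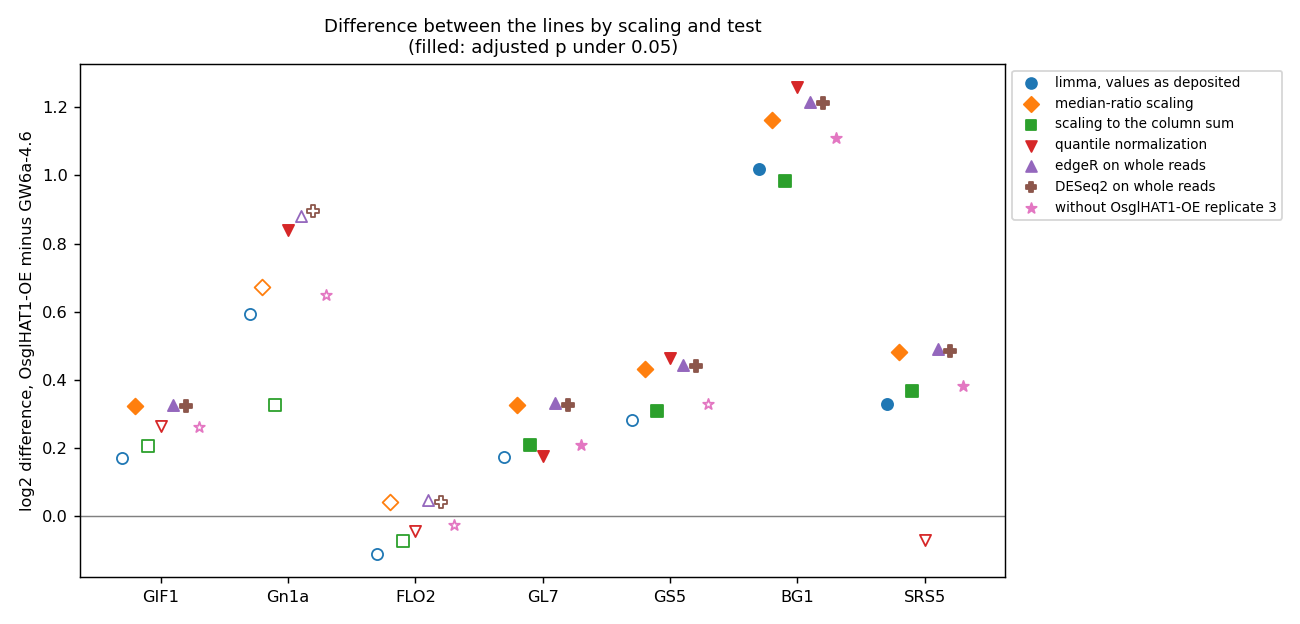
Log2 difference between libraries labelled OsglHAT1-OE and GW6a-4.6 for each gene as deposited, under 3 scalings, under 2 count tests and without OsglHAT1-OE replicate 3, filled where the adjusted p passed. BG1 lies between 0.98 and 1.26 under these settings, while SRS5 is at -0.071 under quantile normalization.

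Profiles over the 8 libraries were set beside each other by the root mean square difference of centred log2 values, a description with no test. Among the members, GL7 and GS5 were the most alike (0.19), followed by GL7 and SRS5 (0.22), and GIF1 and Gn1a the least alike (3.04). Gn1a and FLO2 differed by 0.53. This measure depends on the size of the changes as well as their shape, and the Pearson correlation gave another order. It was 0.986 for GIF1 and GL7, 0.982 for BG1 and SRS5, 0.977 for GL7 and GS5 and 0.932 for GL7 and SRS5. For GIF1 and FLO2 it was -0.99, and for GIF1 and Gn1a -0.878. The distances below are root mean square differences. Of the annotated loci with a mean of 5 or more, the nearest to SRS5 were beta-1 tubulin (Os03t0105600-01, 0.028) and beta-2 tubulin (Os01t0805900-01, 0.031), followed by the auxin responsive protein Os06t0597000-01 (0.032). The nearest to FLO2 were the osmotic stress kinase SAPK1 (Os03t0390200-01, 0.095), a heat shock cognate protein (Os05t0460000-01, 0.095) and granule-bound starch synthase Ib (Os07t0412100-01, 0.11). The nearest to GL7 were a protein kinase (Os03t0825300-03, 0.05), a formyltetrahydrofolate synthetase (Os09t0446800-02, 0.057) and a kinesin (Os03t0587200-01, 0.062). For BG1 they were a peroxidase (Os04t0689000-01, 0.11), a polygalacturonase beta subunit (Os08t0380100-01, 0.12) and a proteinase inhibitor (Os12t0548401-01, 0.13). For GS5 they were a RING-type zinc finger protein (Os05t0389600-01, 0.093), a helix-loop-helix factor (Os06t0724800-01, 0.095) and an isocitrate dehydrogenase (Os05t0573200-00, 0.099). GIF1 was nearest to an acid phosphatase domain protein (Os07t0681200-01, 0.14), an LSD1-type zinc finger protein (Os08t0130100-01, 0.18) and a terpenoid synthase (Os03t0347900-01, 0.21). Gn1a was nearest to a locus with an uninformative name (Os04t0381700-00, 0.20), an alpha/beta hydrolase (Os09t0460400-01, 0.22) and an ankyrin protein (Os06t0250600-01, 0.32).

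Other known grain size and yield genes gave the wider setting. Of 28 loci listed by identifier, 1 had no row, 1 was dropped because its annotation names another family, and 24 of the remaining 26 were tested. In libraries labelled GW6a-4.6, 12 rose and none fell (median log2 difference 0.42, against 0.067 for all tested loci), although SRS3 fell under median-ratio scaling. The 12 are 50% of those tested in the list, where 26.7% of all tested loci rose. In libraries labelled OsglHAT1-OE, 17 rose and none fell (median 0.75, against -0.082), although D1 fell under scaling to the column sum and SRS3 under quantile normalization. The 17 are 70.8% of those tested in the list, where 22.8% of all tested loci rose. The GW6a gene is 1 of the 12 and of the 17, and the list was chosen with earlier results known. Without OsglHAT1-OE replicate 3, 19 rose and none fell in that line.

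D2 (Os01t0197100-00), an enzyme that makes brassinosteroid, a hormone that promotes grain growth, rose in both lines. It was at 35.3 ± 2.98 in GW6a-4.6 and 24.1 ± 4.66 in OsglHAT1-OE, against 4.75 ± 1.56 in Nipponbare (adjusted p = 3.27e-14 and 1.04e-11). D61 (Os01t0718300-01), the receptor of that hormone, rose to 281 ± 18.996 in GW6a-4.6 and 402 ± 9.01 in OsglHAT1-OE, against 212 ± 6.77 in Nipponbare. GSK2 (Os05t0207500-01), a kinase that restrains its signal, rose to 79.3 ± 5.0 in GW6a-4.6 and 70.4 ± 6.85 in OsglHAT1-OE, against 39.8 ± 0.369 in Nipponbare. BZR1 (Os07t0580500-01), a transcription factor of its signal, rose to 119 ± 15.5 in GW6a-4.6 and 125 ± 11.96 in OsglHAT1-OE, against 71.1 ± 9.06 in Nipponbare. D11 (Os04t0469800-01), another enzyme of its synthesis, was at 20.6 ± 1.8 in GW6a-4.6 and 20.8 ± 1.6 in OsglHAT1-OE, against 15.2 ± 0.791 in Nipponbare, on either side of the threshold (adjusted p = 0.0565 and 0.0451).

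Among the other regulators, the helix-loop-helix protein PGL2 (Os02t0747900-00), which lengthens grains, rose to 24.6 ± 2.68 in GW6a-4.6 and 36.9 ± 3.89 in OsglHAT1-OE, against 8.23 ± 0.775 in Nipponbare. Its antagonist APG (Os05t0139100-01) rose as well, to 39.1 ± 0.692 in GW6a-4.6 and 28.9 ± 6.83 in OsglHAT1-OE, against 19.7 ± 2.82 in Nipponbare. The panicle architecture factor IPA1 (Os08t0509600-01) rose to 69.3 ± 2.89 in GW6a-4.6 and 81.4 ± 20.8 in OsglHAT1-OE, against 32.1 ± 4.03 in Nipponbare. GW5 (Os05t0187500-00), which limits grain width, was at 11.998 ± 2.18 in libraries labelled GW6a-4.6 (adjusted p = 0.116) and rose to 22.9 ± 6.11 in those labelled OsglHAT1-OE (adjusted p = 6.64e-06), against 8.59 ± 0.35 in Nipponbare. GW2 (Os02t0244100-01), a ubiquitin ligase that limits grain width, was at 56.8 ± 4.09 in GW6a-4.6 and 52.9 ± 4.09 in OsglHAT1-OE, against 46.4 ± 1.47 in Nipponbare, and passed in neither line (adjusted p = 0.0643 and 0.235). GS3 (Os03t0407400-00), which shortens the grain, was at 3.17 ± 0.709 in GW6a-4.6 and 3.002 ± 2.06 in OsglHAT1-OE, against 3.27 ± 2.97 in Nipponbare, and TGW6 had no reads in any library. DST, GW8 and the genes of this list beyond D2, PGL2, GSK2, D61 and GW6a were named for their known roles after their values were seen, as were Os04t0413200-01 and the 4 alpha-tubulin loci in their families.

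**Figure D5:**
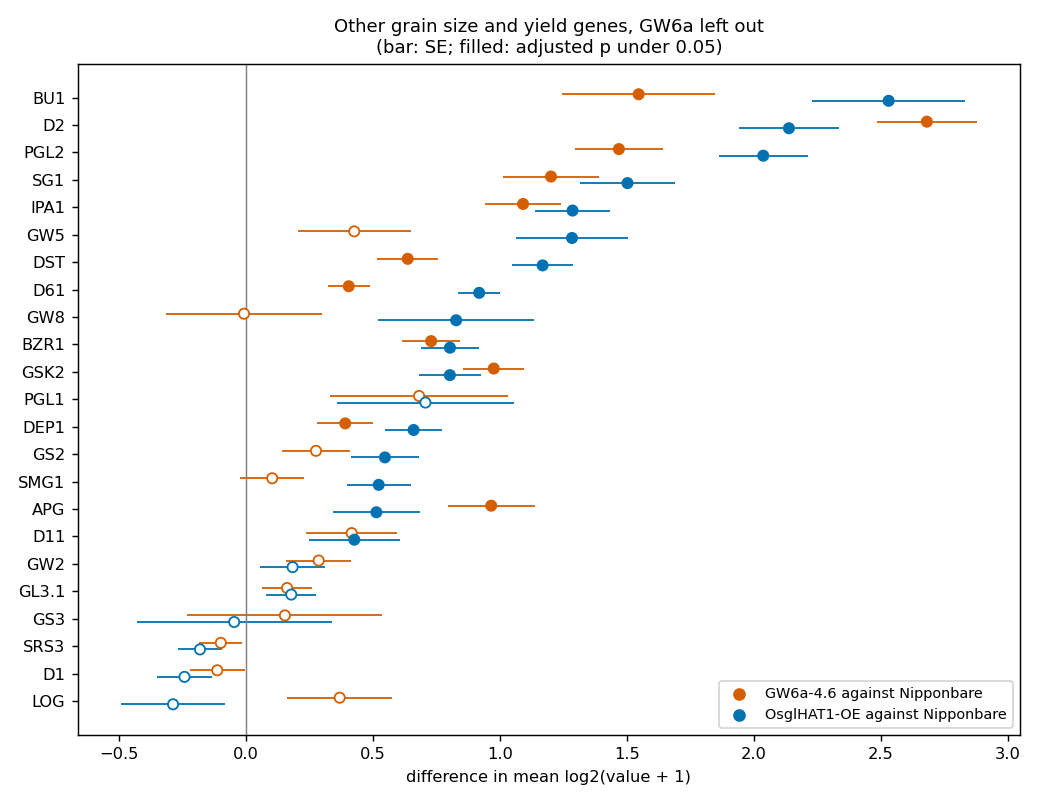
Log2 differences from Nipponbare of 23 other tested grain size and yield genes with SE bars, in libraries labelled GW6a-4.6 and OsglHAT1-OE, filled where the adjusted p passed. No filled point lies below 0 for the values as deposited (SRS3 or D1 fell under other scalings), and BU1, D2 and PGL2 lie farthest to the right.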

How the data were processed

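The deposited table gives a signal per transcript model, called RPM in the file's name, in each library. The submitters' processing notes name Bowtie and edgeR, without versions or roles, and IRGSP-1.0 as the build. Strand and the treatment of reads with several matches are not given in the sources used here. Divided by what 1 read adds, 100% of values came out whole (tolerance 0.01), so whole reads were recovered. Library totals follow from that step if values are scaled to 1000000 reads, as the name says. The columns summed to 2411271 to 2690367, so reads were counted at more than 1 model.

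The model with the highest mean was kept per locus. The test was limma 3.58.1 (trended prior, R 4.3.3) on log2(value + 1), with all 8 libraries in 1 fit, a mean per group and Benjamini-Hochberg adjustment over 31487 loci at 0.05. edgeR 4.0.16 and DESeq2 1.42.0 were run on the recovered reads as alternatives. Folds are ratios of means.

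Named were the 7 members, up to 4 loci per list and line with the smallest adjusted p, and the 3 nearest profiles per member. Members and lists were chosen with earlier results of these data known. HGW was dropped after its annotation was read. Replicate numbers were not used to pair libraries in the main test. Values are read per locus without strand, so overlapping and near-identical genes may share reads. No sequence is shown.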

Additional observations from a re-analysis of the deposited data

Results flagged for a closer look

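Under the labels as given, for BG1 the change from Nipponbare differed between the lines. Its value averaged 32.7 ± 3.80 in libraries labelled OsglHAT1-OE and 15.6 ± 1.71 in those labelled GW6a-4.6 (SD, n = 3 each), a log2 difference of 1.02 (SE 0.17, limma adjusted p = 8.87e-06), with all 3 libraries of the first group above all 3 of the second. For SRS5 the averages were 9889 ± 629 in OsglHAT1-OE and 7856 ± 118 in GW6a-4.6, a log2 difference of 0.33 (SE 0.055, limma adjusted p = 9.82e-06), again without overlap. The difference of SRS5 was lost under quantile normalization, and that of BG1 was kept under all 22 alternatives.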

How the results depend on the processing

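Against Nipponbare, all 7 genes kept their direction and their call in both lines under each of 22 alternatives (another pseudocount, filter, scaling, transcript model, test or fit, or 1 library left out). The log2 difference of GIF1 in libraries labelled GW6a-4.6 ranged from 3.83 to 4.94, that of Gn1a from -3.31 to -1.52 and that of SRS5 from 0.36 to 0.83. Between the lines, calls not made as deposited appeared under other settings: for GIF1 under median-ratio scaling, edgeR and DESeq2 (0.32, 0.33 and 0.32), for GL7 under no filter, median-ratio scaling, scaling to the column sum, quantile normalization, edgeR and DESeq2 (0.17, 0.33, 0.21, 0.18, 0.33 and 0.33), for GS5 under the last 5 of these (0.43, 0.31, 0.46, 0.44 and 0.44) and for Gn1a under quantile normalization (0.84). With 1 library left out, GL7 ranged from 0.13 to 0.21 and was called without OsglHAT1-OE replicate 3, and Gn1a ranged from 0.36 to 1.04 and was called without GW6a-4.6 replicate 1. FLO2 changed sign without a call under median-ratio scaling (0.041), edgeR (0.047) and DESeq2 (0.041), and SRS5 under quantile normalization (-0.071). The cause was not tested. Counts of called loci stayed within a factor of 1.5 in all alternatives.

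Correlations across loci of deviations from the group mean were -0.00256 to 0.0648 between libraries with the same replicate number. Between libraries with different numbers they were -0.0648 to 0.0309. Centring within such small groups makes the 2 Nipponbare libraries mirror each other, so this check cannot decide whether libraries were paired. The numbers were treated as names. With the replicate block, 14698, 16421 and 10908 loci were called in libraries labelled GW6a-4.6 and OsglHAT1-OE against Nipponbare and between the lines, and no call of the 7 genes changed. Not every library correlated best with its own number. Leaving out a Nipponbare library leaves that group with 1, which is then assumed to vary like the others. Gn1a, with 2 reads in each of 2 libraries, is limited by depth, and what 3 reads are worth covers counting error only.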

Other observations

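The loci beside the 7 genes by identifier, 3 on each side, were read after their values were known. Those described here were picked from them, mostly for a change, and do not stand for all. Of all tested loci, 46.3% were called in GW6a-4.6 and 52.5% in OsglHAT1-OE, so a call beside a member is common. Others passed in neither line, such as Os05t0159000-01 beside GS5 (adjusted p = 0.504 and 0.422) and Os01t0198100-01 beside Gn1a (adjusted p = 0.546 and 0.687). Beside GS5, the gibberellin 2-oxidase homologues Os05t0158600-01 and Os05t0158700-01, of a family that inactivates gibberellin, averaged 44.1 and 20.9 in libraries labelled GW6a-4.6 and 35.8 and 16.9 in those labelled OsglHAT1-OE, against 11.8 and 9.08 in Nipponbare, and both rose in both lines (log2 differences of 1.82 and 1.13, then 1.52 and 0.83). On the other side of GS5, the trypsin-like peptidase Os05t0158200-01 averaged 146 in GW6a-4.6 and 123 in OsglHAT1-OE, against 170.1 in Nipponbare, with adjusted p = 0.0896 in GW6a-4.6 and 0.000361 in OsglHAT1-OE. Beside GIF1, the DUF584 protein Os04t0413900-01 averaged 9.87 in GW6a-4.6 and 16.2 in OsglHAT1-OE, against 1.59 in Nipponbare, and rose in both, while the ribosomal protein S14 locus Os04t0413600-01, the nearest on that side, averaged 493 in GW6a-4.6 and 546 in OsglHAT1-OE, against 455 in Nipponbare, with adjusted p = 0.272 in GW6a-4.6 and 0.00897 in OsglHAT1-OE. Beside BG1, Os03t0174900-01 averaged 39.2 in GW6a-4.6 and 32.1 in OsglHAT1-OE, against 111 in Nipponbare, and fell in both. Beside Gn1a, Os01t0197400-01 averaged 119.98 in libraries labelled GW6a-4.6, 51.0 in those labelled OsglHAT1-OE and 52.5 in Nipponbare, and was lower in OsglHAT1-OE than in GW6a-4.6 (log2 difference -1.22).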
